A study of Mus musculus with 16 samples.

Results

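The response to whiskey lactone was described in 1 of the 2 sorted cell fractions of mouse olfactory mucosa, the 8 arrays titled GFP- of the 16 arrays of the series. They were taken by their titles, and comprise 4 pools exposed to the odor and 4 exposed to vehicle, each pool holding cells of 3 mice. The mice were S100a5-tauGFP reporter animals of C57BL/6 strain, of both sexes and 7 to 12 weeks old, so that vehicle and odor groups alike carried the reporter. Each of the 24 mice sat alone in a chamber under clean air flowing at 3.1 L/min for 40 h, and from 26 h onwards received a 10 s pulse every 20 min. The pulse was filtered air in the vehicle group and whiskey lactone, an oak-derived odorant of aged spirits, in the odor group. The labels disagree about the fraction: the cell type field of these 8 arrays reads GFP+. S100a5, the gene behind the reporter, was bright in all 8 (16.23 to 16.74, log2 signal) and averaged 16.58 ± 0.13 with odor and 16.51 ± 0.19 with vehicle (SD, n = 4). In the arrays titled GFP+ it averaged 15.24 ± 0.30 and 15.28 ± 0.27. The measured S100a5 therefore sits with the cell type field. Odor and vehicle are compared within the fraction, so which name is right does not alter the sign of a value, and the fraction is called by its title here.

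An olfactory sensory neuron expresses 1 odorant receptor gene out of a large family. Odor binding to that receptor raises cAMP, opens cyclic nucleotide-gated channels and lets calcium in, and the activity that follows changes the transcription of a set of genes, S100a5 and several adhesion molecules of sensory axons among them. A reporter of such a gene marks neurons that have been active, and the receptor transcripts found in the marked cells point to the receptors those neurons carry. In bulk RNA of this kind a higher receptor signal can come from more neurons of that receptor in the fraction or from more transcript in each neuron, and the 2 cannot be told apart.

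Omp, the abundant olfactory marker protein of mature sensory neurons, averaged 18.68 ± 0.11 with odor and 18.66 ± 0.04 with vehicle (log2 signal, SD, n = 4), and was above the negative controls in all 8 arrays. The brightest feature of the arrays was at 19.1 to 19.2, and whether Omp is compressed near that ceiling was not tested. The median signal of all features was 6.08 to 6.24 per array and that of the negative control features 5.14 to 5.56, and 58.0 to 62.6% of the 19505 genes exceeded the control median. Correlations over genes were 0.990 to 0.994 between arrays of 1 group and 0.990 to 0.995 between groups. Groups of 4 arrays limit the precision of every value below.

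Whiskey lactone raised 1 gene in the unpaired comparison of odor with vehicle, the odorant receptor gene Olfr221, which was 6.99-fold higher. That is 0.00513% of the 19505 genes tested, and 0 genes were lower at an adjusted p under 0.05 (limma; at an unadjusted p under 0.05, 775 were higher, 3.97%, and 532 lower, 2.73%). The replicate numbers of odor and vehicle pools marked shared deviations over all genes, so the comparison was also made within pairs of equal number. There 15 genes rose (0.0769% of genes tested) and 0 fell, with 1125 higher (5.77%) and 777 lower (3.98%) at an unadjusted p under 0.05. The 15 were 6 odorant receptors and 9 other genes, with differences of 0.63 to 2.80 on the log2 scale, and each was higher with odor in 4 of 4 pairs, as were 9.51% of all genes, while 8.36% were lower in all 4. In 13 of them the 4 odor arrays all lay above the 4 vehicle arrays, which held for 2.44% of all genes in that direction and for 2% in the other. In 14 all 8 arrays lay above the control median. The fit picked the 15 by these same paired differences. The counts of higher pairs and of groups without overlap are therefore no separate support.

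The 15 calls rest on the pairing and on few residual degrees of freedom (3). Without the variance trend of the fit, 0 passed (smallest adjusted p = 0.0952; 962 higher and 721 lower at an unadjusted p under 0.05). Without number 1, 5 genes passed. Without number 2, 8 passed, 5 higher and 3 lower. Without number 4, 25 passed, 21 higher and 4 lower, and 12 of them were among the 15. Olfr221, Pcdh10, Etv5, Kcng1 and Kirrel2 passed whichever number was left out, and Nol4l and Olfr810 in none of these 4 fits.

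**Figure D1:**
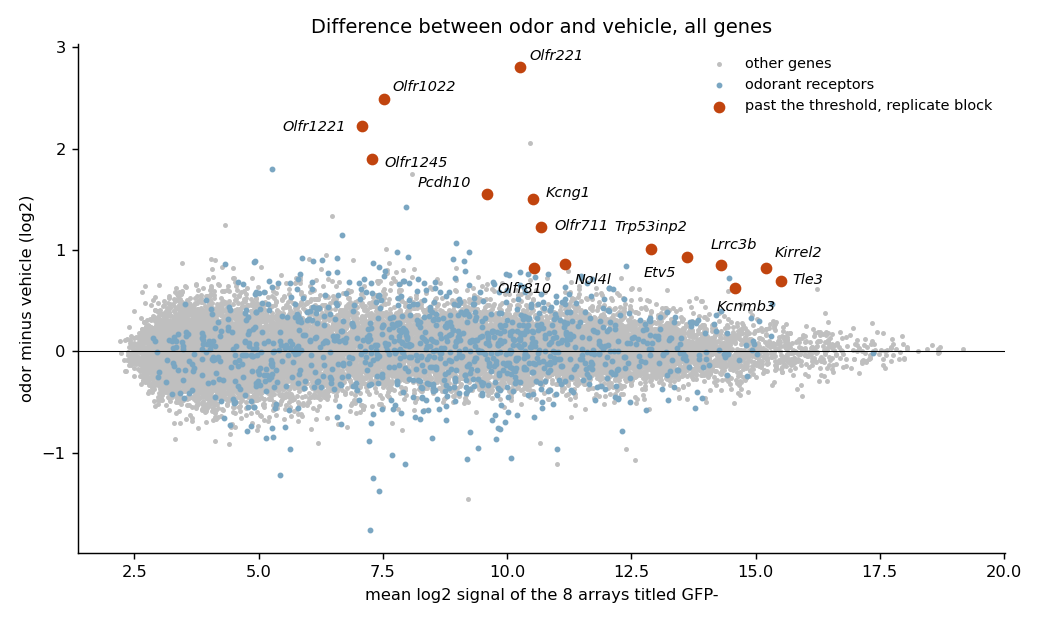
Odor minus vehicle (log2, vertical axis) against the mean log2 signal of the 8 arrays titled GFP- (horizontal axis), 1 point per gene, with odorant receptors in blue and the 15 genes past the threshold in the fit with the replicate block in orange. All 15 lie above 0, between 0.63 and 2.80, and the 4 receptors Olfr221, Olfr1022, Olfr1221 and Olfr1245 lie highest among them.

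Among odorant receptors, Olfr221 gave log2 signals of 11.42, 12.12, 11.54 and 11.58 in odor pools 1 to 4, against 8.96, 8.26, 8.49 and 9.72 in vehicle pools 1 to 4. The lowest odor pool thus stood well above the highest vehicle pool, and the vehicle pools spread more widely (SD 0.65) than the odor pools (SD 0.31). The difference was 2.80 ± 0.27 unpaired (SE; limma, adjusted p = 0.00419) and 2.80 ± 0.25 with the replicate block (adjusted p = 0.00190). In a fit of all 16 arrays with the pool as a random block the same difference had an adjusted p of 0.0996 and 0 genes passed (666 higher and 481 lower at an unadjusted p under 0.05). Olfr221 lies on chromosome 14 apart from other receptors: the genes next to it in order, Tmem253 (-0.39) and Hnrnpc (0.02), did not pass.

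Olfr1022 stood at 9.04, 9.58, 8.61 and 7.82 with odor and at 6.07, 5.70, 6.45 and 6.85 with vehicle, a 5.63-fold higher level (2.49 ± 0.35, SE; block adjusted p = 0.0236, unpaired 0.0791). Olfr1221 stood at 7.42, 8.40, 8.52 and 8.40 with odor and at 5.0, 6.42, 5.30 and 7.13 with vehicle (2.22 ± 0.26; block adjusted p = 0.00694). Only 2 of its 4 vehicle arrays exceeded the control median, so its 4.67-fold difference depends on signals at background. Olfr1245 stood at 8.34, 9.32, 8.14 and 7.13 with odor and at 5.92, 6.76, 6.25 and 6.42 with vehicle (1.89 ± 0.27; 3.71-fold; block adjusted p = 0.0236). The lowest vehicle signals of Olfr1022 (pool 2, 5.70, control median 5.53) and of Olfr1245 (pool 1, 5.92, control median 5.43) were also near the control median. All 3 receptors are encoded on chromosome 2, and for each the groups did not overlap. For all 3 the pair of number 4 showed the smallest difference: 0.97 for Olfr1022, 1.26 for Olfr1221 and 0.70 for Olfr1245.

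The other 2 receptors changed less. Olfr711 stood at 11.48, 10.98, 11.46 and 11.28 with odor and at 10.31, 9.35, 10.70 and 9.94 with vehicle (1.23 ± 0.15, SE; 2.34-fold; block adjusted p = 0.00694). Olfr810 stood at 11.03, 11.24, 11.16 and 10.33 with odor and at 10.34, 10.17, 10.27 and 9.70 with vehicle (0.82 ± 0.13; block adjusted p = 0.0412). Its groups overlapped by a narrow margin, odor pool 4 lying just below vehicle pool 1, while the paired differences stayed between 0.64 and 1.07. Of the receptors next in order to these 5 genes, none passed. Some had differences of the same sign, such as Olfr1220 beside Olfr1221 (0.73) and Olfr1243 beside Olfr1245 (0.79), and others the opposite sign, such as Olfr809 beside Olfr810 (-0.85). Whether features of neighbouring receptors share sequence was not tested.

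**Figure D2:**
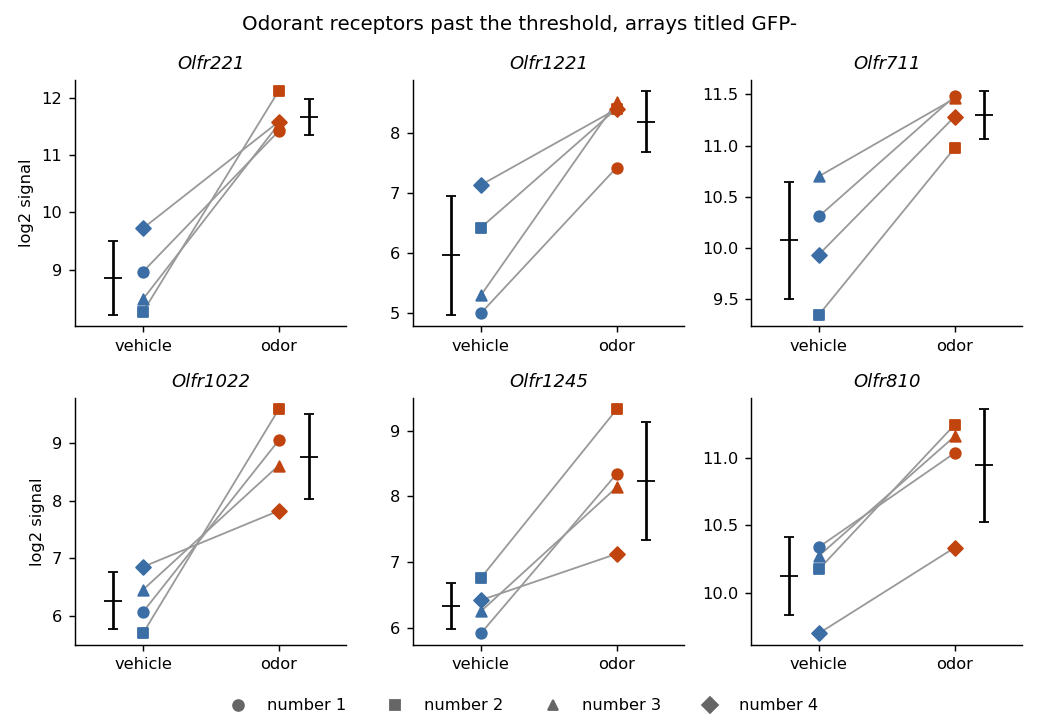
Log2 signal of the 6 odorant receptors past the threshold in each vehicle and odor array titled GFP-, with lines joining pools of equal number and bars giving mean ± SD (n = 4). Every line rises, and the groups overlap only for Olfr810; the vertical axes differ between panels.

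The 9 other genes that rose include adhesion molecules, transcription factors and channel subunits. Pcdh10, a protocadherin, an adhesion molecule whose transcript in these neurons depends on activity, stood at 10.33, 10.81, 10.09 and 10.21 with odor and at 8.42, 9.47, 8.82 and 8.54 with vehicle. The groups did not overlap, and the paired differences were 1.27 to 1.91. The 2.92-fold difference (1.55 ± 0.15, SE) had an adjusted p of 0.00201 with the block and 0.124 without it. Kirrel2, an immunoglobulin-family adhesion molecule that helps sort sensory axons into glomeruli, stood at 15.40, 15.50, 16.18 and 15.39 with odor and at 14.70, 14.65, 15.13 and 14.69 with vehicle. Pool 3 was the highest of both groups, and the paired differences were close, 0.70 to 1.05 (mean 0.83 ± 0.08; block adjusted p = 0.00201). Lrrc3b, a leucine-rich repeat membrane protein, stood at 14.47, 14.93, 14.97 and 14.55 with odor and at 13.67, 13.58, 14.26 and 14.01 with vehicle (0.85 ± 0.12; 0.0236).

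Etv5, an ETS-domain transcription factor of the PEA3 group that acts downstream of receptor tyrosine kinases and ERK, stood at 13.74, 14.05, 14.49 and 14.02 with odor and at 12.74, 13.00, 13.73 and 13.10 with vehicle. Its paired differences, 0.76 to 1.05, varied little, whereas pools of number 3 were the highest and pools of number 1 the lowest under both treatments. The difference of 0.93 ± 0.09 (SE) had an adjusted p of 0.00201 with the block and 0.484 without it. Tle3, a Groucho-family co-repressor, stood at 15.70, 15.75, 16.23 and 15.76 with odor and at 14.75, 15.01, 15.68 and 15.22 with vehicle (0.70 ± 0.09; block adjusted p = 0.00882). Its lowest odor pool exceeded its highest vehicle pool by little. Trp53inp2, which encodes a nuclear protein that also takes part in autophagy, stood at 13.30, 13.37, 13.91 and 12.98 with odor and at 12.08, 11.91, 12.95 and 12.61 with vehicle (1.01 ± 0.15; 0.0335). Nol4l stood at 11.55, 11.36, 11.65 and 11.83 with odor and at 10.99, 10.57, 10.67 and 10.71 with vehicle (0.86 ± 0.12; 0.0276).

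Kcng1, a modulatory subunit that changes the gating of voltage-gated potassium channels, stood at 10.65, 11.78, 11.51 and 11.11 with odor and at 9.07, 9.85, 9.98 and 10.14 with vehicle. The groups did not overlap, with paired differences of 0.97 to 1.93. The 2.83-fold difference (1.5 ± 0.15, SE) had an adjusted p of 0.00201 with the block and 0.279 without it. Kcnmb3, a regulatory subunit of calcium-activated potassium channels, stood at 14.48, 15.27, 14.95 and 14.87 with odor and at 13.92, 14.33, 14.57 and 14.23 with vehicle (0.63 ± 0.10; 0.0458). Its groups overlapped, and its adjusted p became 0.0651 after median centring and 0.0516 after cyclic loess.

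**Figure D3:**
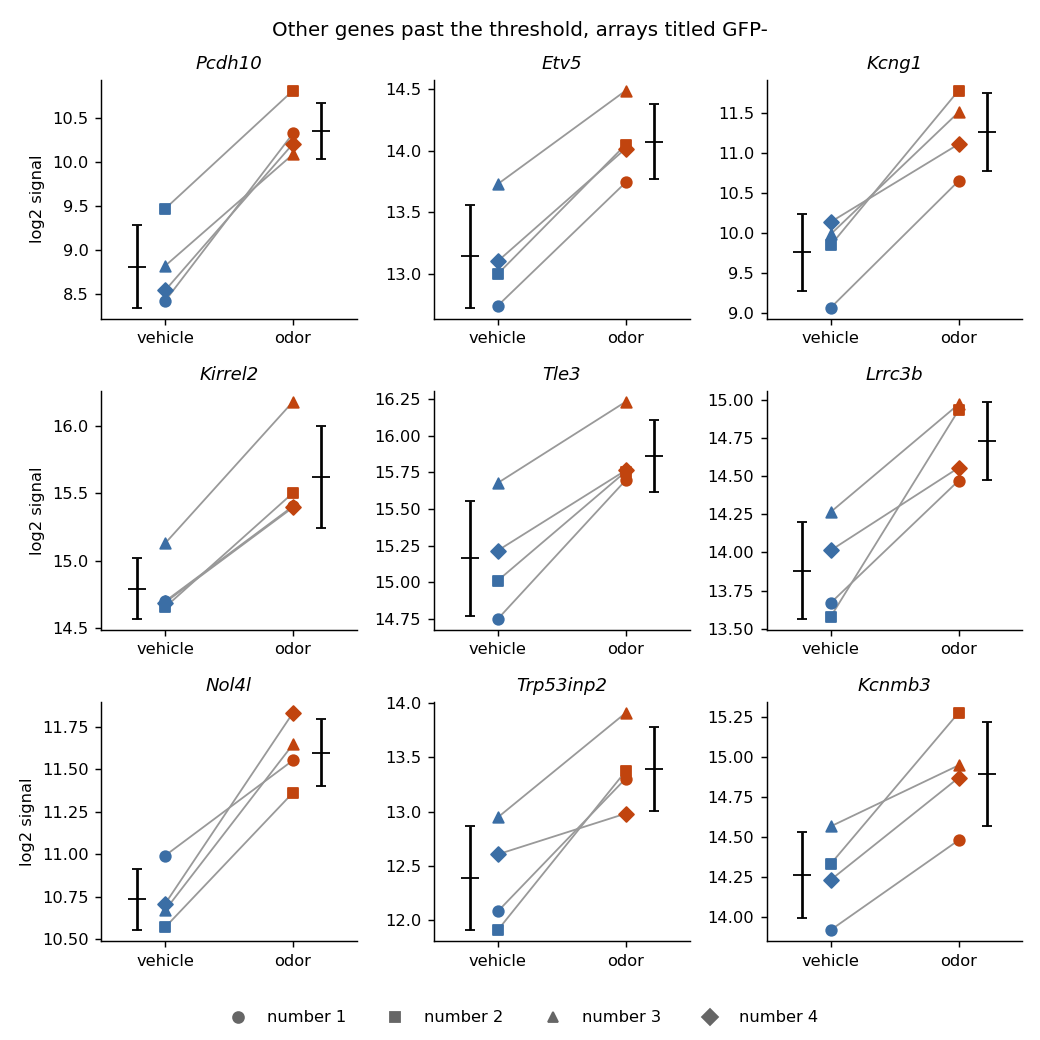
Log2 signal of the 9 genes past the threshold that are not odorant receptors, in each vehicle and odor array titled GFP-, with lines joining pools of equal number and bars giving mean ± SD (n = 4). Every line rises, and the vertical axes differ between panels.

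Pools of number 4 stood apart in genes of the Y chromosome. Uty was at 10.06 to 11.10 in the 6 arrays of numbers 1 to 3 and at 3.64 and 4.17 in the odor and vehicle arrays of number 4. Kdm5d and Eif2s3y were likewise below the control median in both arrays of number 4. Of the 15 genes that rose, 9 had their smallest paired difference in number 4, 5 of them receptors, against 2 in number 1, 0 in number 2 and 4 in number 3. The share over all genes was not counted. Number 4 is 1 pair of pools, and a link between its Y-linked signal and these differences was not tested. With the mean of these 3 Y-linked genes as a covariate beside the block, 40 genes passed, 27 higher and 13 lower, 13 of the 15 among them. The block already holds the difference between number 4 and the other numbers. The covariate therefore adds only differences within pairs and takes a further residual degree of freedom. Whether the Y-linked difference of number 4 bears on the calls was not tested by this fit. Nol4l (adjusted p = 0.122) and Olfr810 (0.0586) did not pass.

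Sequences upstream of the gene start were available in RefSeq for 11 of the 15 genes (assembly GRCm38.p6, 13 windows of 250 bases before to 50 after the start). The windows were searched on both strands for the cAMP response element TGACGTCA, bound by CREB, the AP-1 element TGANTCA of Fos and Jun proteins, the ETS element CCGGAAGT bound by factors such as Etv5, the EGR element GCGTGGGCG, and the palindromic element of the Olf/EBF factors of sensory neurons; none of these contains another. The cAMP response element lay in 1 of the 13 windows, that of Trp53inp2, starting 41 bases before the start (position -41), against 1.79% of all 32851 windows. The others lay in 0 of 13, against 7.81% (AP-1), 3.89% (ETS), 0.612% (EGR) and 0.904% (Olf/EBF) of all windows. Such matches describe letters in the window and no binding was measured. The 250 bases before the start are shown for 3 genes that rose together, Trp53inp2 for its match, set in capitals, and the 2 axonal adhesion genes Pcdh10 and Kirrel2, in which none of the 5 elements was found. They lie at chr2:155381606-155381855 (plus strand), chr3:45378148-45378397 (plus strand) and chr7:30457516-30457765 (minus strand).
Trp53inp2: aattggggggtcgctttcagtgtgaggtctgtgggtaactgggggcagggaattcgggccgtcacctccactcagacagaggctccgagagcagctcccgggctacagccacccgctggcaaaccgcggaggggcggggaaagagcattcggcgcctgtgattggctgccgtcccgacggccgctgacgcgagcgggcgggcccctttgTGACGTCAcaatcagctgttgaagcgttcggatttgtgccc
Pcdh10: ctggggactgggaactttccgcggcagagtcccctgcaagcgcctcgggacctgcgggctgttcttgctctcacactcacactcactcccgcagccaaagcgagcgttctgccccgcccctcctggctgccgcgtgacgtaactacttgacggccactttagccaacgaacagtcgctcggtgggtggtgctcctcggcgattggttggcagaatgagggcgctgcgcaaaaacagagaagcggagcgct
Kirrel2: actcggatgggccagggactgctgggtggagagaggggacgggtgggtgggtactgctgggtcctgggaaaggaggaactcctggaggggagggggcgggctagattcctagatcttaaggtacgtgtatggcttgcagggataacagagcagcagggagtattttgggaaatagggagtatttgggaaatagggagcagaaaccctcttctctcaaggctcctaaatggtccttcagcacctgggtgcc

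The other sorted fraction, in the arrays titled GFP+, came from the same mice and is therefore no independent replicate of the exposure. For the 9 genes that are not receptors the odor minus vehicle difference there was 0.61 to 1.32, against 0.63 to 1.55 in the arrays titled GFP-. Etv5 (1.05 ± 0.12, SE) and Kirrel2 (1.01 ± 0.11) were the 2 genes past the threshold there with the block (adjusted p = 0.0357 for both; 0.0103% of genes tested; 0 passed unpaired, with 409 higher, 2.1%, and 290 lower, 1.49%, at an unadjusted p under 0.05). The difference between the fractions' odor effects, tested over 16 arrays with each pool as a fixed term, did not pass for any of these 9 genes. For Pcdh10 it was 0.22 ± 0.21 and for Etv5 -0.12 ± 0.15 (both adjusted p = 0.999), and for Kcng1, the largest of the 9, 0.75 ± 0.20 (unadjusted p = 0.00264, adjusted p = 0.999).

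Olfr221 was the 1 gene of 19505 (0.00513%) whose odor effect differed between the fractions (638, or 3.27%, at an unadjusted p under 0.05). In the arrays titled GFP+ it stood at 7.22, 6.63, 6.24 and 9.05 with odor and at 10.41, 10.54, 10.07 and 10.13 with vehicle, so that all 4 odor pools were lower there, with a mean difference of -3.0, while all 4 were higher in the arrays titled GFP-. The difference of the effects was 5.81 ± 0.56 (SE; adjusted p = 0.00306). The other 5 receptors were not lower in the arrays titled GFP+: their differences there ran from 0.16 for Olfr711 to 1.68 for Olfr1022, and none passed. Their effects were larger in the arrays titled GFP- by 0.35 to 1.67, at an unadjusted p under 0.05 for all but Olfr810, and none passed after adjustment. Olfr937, singled out after its values were seen, had the pattern of Olfr221 at smaller size. It stood at 9.53, 9.33, 9.18 and 9.98 with odor and at 7.86, 8.20, 8.79 and 8.89 with vehicle (1.07 ± 0.19; block adjusted p = 0.0826), and its difference in the arrays titled GFP+ was -2.0 (difference of effects 3.07 ± 0.46, adjusted p = 0.165).

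**Figure D4:**
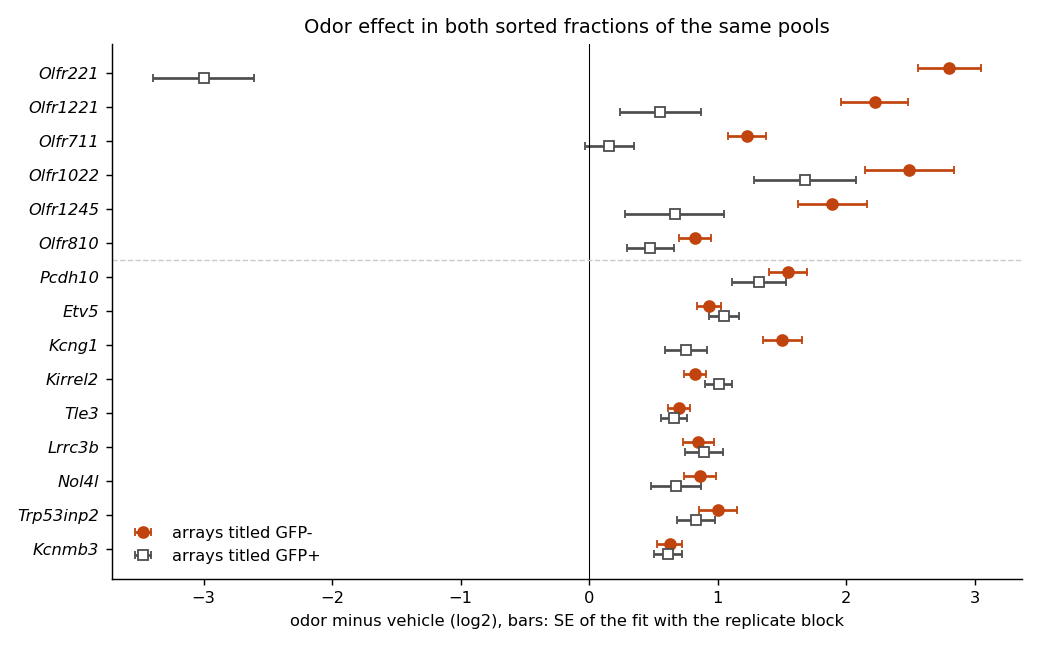
Odor minus vehicle (log2, horizontal axis) of the 15 genes in the arrays titled GFP- (filled) and in those titled GFP+ from the same mice (open); bars are SE of the fit with the replicate block, and the dashed line parts receptors from other genes. Olfr221 lies at 2.80 and -3.0, and the other 14 genes lie above 0 in both fractions.

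Over the whole odorant receptor family, 170 of the 1091 receptors were higher and 104 lower at an unadjusted p under 0.05 with the block (15.6% and 9.53%, against 5.77% and 3.98% of all genes), and the median difference was 0.05. The groups did not overlap for 22 of the 1091 receptors with odor higher and 8 with odor lower, against 2.44% and 2% of all genes. By this measure receptors did not separate more often than all genes. Olfr1161, which stood at 9.0, 8.45, 9.01 and 8.22 with odor and at 6.96, 6.07, 7.82 and 8.13 with vehicle, was the largest of those higher without overlap that did not pass (1.43 ± 0.30, SE; block adjusted p = 0.159). The receptors lower with odor did not pass either. Olfr971 had the largest difference among them (-1.76; groups overlapping, block adjusted p = 0.0826; named after its values were seen). Olfr769, the largest without overlap, stood at 6.88, 6.63, 6.76 and 6.39 with odor and at 9.0, 7.75, 7.45 and 7.46 with vehicle (-1.25 ± 0.22; 0.0826), with a difference of 0.21 in the arrays titled GFP+. Olfr1451 (-0.96), Olfr667 (-0.79), Olfr1079 (-0.76) and Olfr1121 (-0.74) were lower in 4 of 4 pairs, and of these Olfr1451 and Olfr1121 exceeded the control median in 1 of the 4 odor arrays.

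The class I receptors, taken by their symbol range and clustered on chromosome 7, related to fish receptors and expressed mostly in the dorsal epithelium, lay lower with odor more often than higher. Of 112, 25 were lower (22.3%) and 5 higher (4.46%) at an unadjusted p under 0.05 with the block, 0 passed after adjustment, and the median was -0.16. Of the 979 class II receptors 79 were lower (8.07%) and 165 higher (16.9%), with a median of 0.07. The class I median in single pairs was -0.12, -0.43, -0.27 and 0.11 in numbers 1 to 4, so the pair of number 4 went the other way, and in the arrays titled GFP+ the median over pairs was 0.00 with pairs from -0.61 to 0.40. Olfr597 stood at 10.20, 10.65, 9.60 and 10.38 with odor and at 10.89, 11.44, 10.57 and 10.54 with vehicle (-0.65, lower in 4 of 4 pairs), Olfr649 differed by -0.67, and Olfr556 by 0.68. Of the 15 trace amine-associated receptors, which detect volatile amines, 0 passed and 2 were higher (13.3%, against 5.77% of all genes) at an unadjusted p under 0.05 with the block. These were Taar3 (0.70, groups not overlapping) and Taar6 (0.67), while Taar2 differed by -0.53 and Taar8c by 0.47.

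Of 13 measured genes whose transcripts follow sensory neuron activity, 3 rose, Pcdh10, Lrrc3b and Kirrel2, and 0 fell (adjusted p under 0.05 with the block; 0.0769% of all genes rose), and the list's median was 0.13 against 0.00 for all genes. The gene lists were chosen with earlier results of these data known, so the calls they hold are no separate support. Rasgrp4, an exchange factor for Ras, differed by 0.52 and was higher in 4 of 4 pairs without passing. S100a5 belongs with these genes by its known behaviour, yet its pools stood at 16.61, 16.55, 16.74 and 16.42 with odor and at 16.59, 16.62, 16.60 and 16.23 with vehicle, a difference of 0.07 ± 0.07 (SE; block adjusted p = 0.794). The arrays were sorted on its reporter. Of 19 PEA3 factors and feedback genes of ERK signalling, Etv5 alone passed, and the median was 0.15. Spred2, an inhibitor of the pathway, differed by 0.52 (block adjusted p = 0.220), and the phosphatase Dusp6 by 0.33.

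Immediate early genes, transcription factors and other genes induced soon after a stimulus, had a median of 0.16. Of the 25 measured, 0 passed and 6 were higher and 0 lower at an unadjusted p under 0.05 with the block (24% of the list, against 5.77% of all genes higher and 9.75% in either direction). Nr4a1, an orphan nuclear receptor, stood at 9.49, 9.40, 9.37 and 9.25 with odor and at 9.06, 8.35, 8.27 and 8.57 with vehicle, without overlap (0.82; block adjusted p = 0.121). Fosb stood at 9.25, 7.09, 8.04 and 7.87 with odor and at 8.81, 6.68, 6.24 and 6.52 with vehicle (1.00; 0.2): the groups overlapped widely, and pool 1 was the highest of each. Egr1 (0.71) was higher in 3 of 4 pairs and Fos (0.62) in 2 of 4, with SDs of 1.45 and 1.22 among vehicle pools. The list's median in single pairs was 0.02, 0.11, 0.54 and 0.09 in numbers 1 to 4, so the pair of number 3 was the highest. In the arrays titled GFP+ the list's median was 0.54, with pair medians of 0.20, 0.44, 1.46 and -0.10, and Fosb differed by 1.53 and Nr4a1 by 1.42. Of 17 genes regulated by CREB and calcium, 0 passed and 4 were higher (23.5%, against 5.77% of all genes) and 0 lower at an unadjusted p under 0.05, with a median of 0.14. Nptx2, a secreted synaptic pentraxin, differed by 0.68 without overlap (block adjusted p = 0.0981), as did Rgs2 (0.65), which lay below the control median in all 8 arrays. Groups did not overlap for 4 of the 17 with odor higher and for 2 with odor lower, against 2.44% and 2% of all genes. In all 8 arrays, 5 of the 17 were at or below the control median.

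The lists that hold further genes past the threshold had medians near 0. They too were chosen with earlier results of these data known. Of all genes, 0.0769% rose, and 5.77% were higher and 3.98% lower at an unadjusted p under 0.05 with the block. Of 27 axon sorting and guidance molecules 1 rose, Kirrel2, 3 were higher (11.1%) and 0 lower at an unadjusted p under 0.05, and the median was 0.04; the ephrin receptor Epha7 differed by 0.42 (block adjusted p = 0.298). Of 11 non-clustered protocadherins 1 rose, Pcdh10, and 2 were higher and 2 lower at an unadjusted p under 0.05 (18.2% each), with a median of 0.01 that was -0.02 after median centring, while Pcdh17 (-0.53, groups not overlapping) and Pcdh9 (-0.50) differed in the other direction without passing. Of 37 voltage-gated potassium channel subunits 1 rose, Kcng1, and 6 were higher (16.2%) and 1 lower (2.7%) at an unadjusted p under 0.05, with a median of 0.07, and the subunits next in size, Kcnf1 (0.52), Kcnh5 (0.51) and Kcnh6 (0.50), did not pass. Of these 37 subunits, 19 differed upwards and 18 downwards. Groups did not overlap for 2 with odor higher and for 3 with odor lower, against 2.44% and 2% of all genes. In all 8 arrays, 17 of the 37 were at or below the control median. Of 22 mature sensory neuron genes 0 passed, with 3 higher (13.6%) and 1 lower (4.55%) at an unadjusted p under 0.05 and a median of 0.02, which was -0.01 after median centring. The phosphodiesterase Pde4a (0.27) and the transcription factor Ebf2 (0.19) were higher without overlap, and the channel subunit Cngb1 differed by -0.45.

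**Figure D5:**
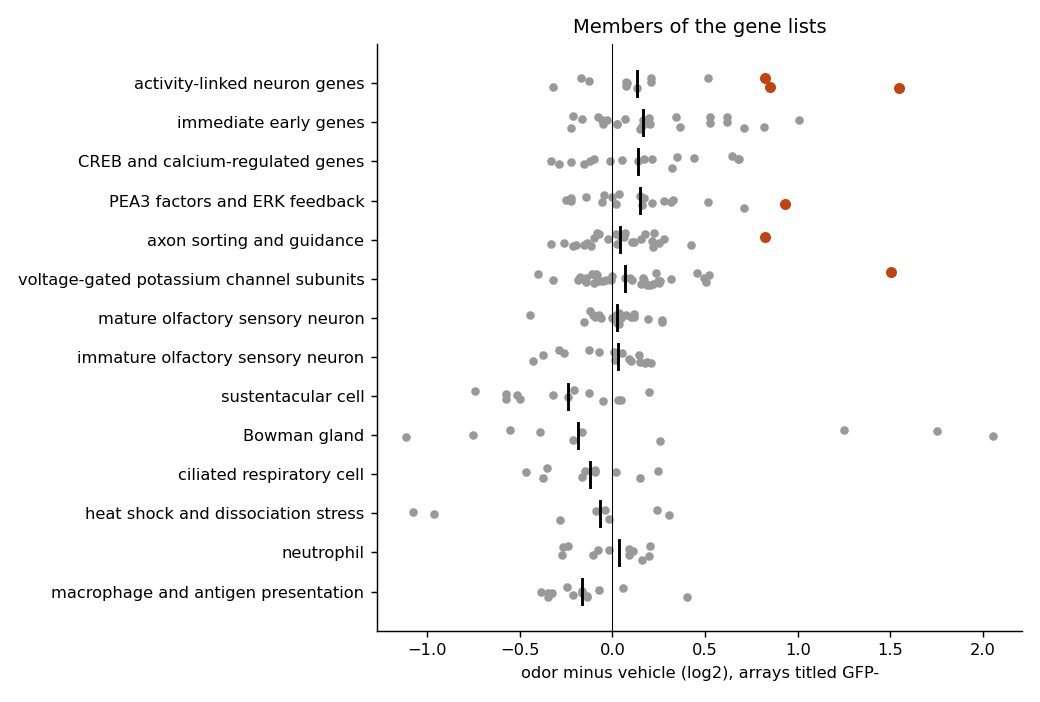
Odor minus vehicle (log2, horizontal axis) of each measured member of 14 gene lists in the arrays titled GFP-; black bars mark list medians and orange points the genes past the threshold with the replicate block, a gene on several lists being drawn on each. List medians lie between -0.24 and 0.16, and the orange points are Pcdh10, Lrrc3b, Kirrel2, Etv5 and Kcng1.

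Markers of other cells of the mucosa gave 0 calls. Of 13 genes of sustentacular cells, the supporting cells of the epithelium, 0 were higher and 5 lower (38.5%, against 3.98% of all genes) at an unadjusted p under 0.05 with the block, with a median of -0.24 and pair medians of -0.59, 0.24, -0.47 and 0.04. The summed signal of the list was 13.97 to 15.16 (log2) in odor arrays and 14.39 to 15.96 in vehicle arrays, and 1 of the 13 was at or below the control median in all 8. Cyp1a2 (-0.74) and Cyp2a5 (-0.57), detoxifying enzymes of these cells, differed most along with the mucin Muc2 (-0.57). Of 10 secretory genes of Bowman glands 3 were higher and 3 lower at an unadjusted p under 0.05 (30% each, against 5.77% and 3.98% of all genes). Bpifb9b stood at 12.21, 12.27, 11.04 and 10.41 with odor and at 10.74, 10.85, 5.98 and 10.14 with vehicle (2.05, block adjusted p = 0.238). Its difference rests largely on vehicle pool 3, far below the other vehicle pools. Bpifb9a differed by 1.75 (0.0826), and Obp2a, an odorant-binding protein, by -1.11. The summed signal of those 10 genes was 11.3 to 13.4 with odor and 11.7 to 13.1 with vehicle.

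Among 10 ciliated respiratory cell genes, Dynlrb2 (-0.46) and Cfap126 (-0.38) were lower (20% of the list, against 3.98% of all genes) at an unadjusted p under 0.05 and without overlap. The summed signal of that list was 15.73 to 15.96 with odor and 16.01 to 16.55 with vehicle, so the groups did not overlap there either. Of 12 neutrophil genes and 13 macrophage and antigen presentation genes, 0 were higher or lower at an unadjusted p under 0.05 with the block, with summed signals of 10.4 to 12.2 and 9.46 to 10.5 with odor and 10.6 to 12.1 and 9.76 to 10.6 with vehicle. Among 8 heat shock genes, which respond to tissue dissociation, the twin genes Hspa1a (-1.08) and Hspa1b (-0.96) were lower (25% of the list, against 3.98% of all genes) at an unadjusted p under 0.05, Hspa1a with 11.71, 12.68, 11.70 and 12.07 under odor and 12.66, 12.58, 13.60 and 13.62 under vehicle. Their signals cannot be told apart with certainty, since the copies are nearly identical. The part of these cell types and of dissociation in the 15 calls was not tested.

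Among genes that are not receptors, did not pass, had groups without overlap and an unadjusted p under 0.01 in the unpaired fit, Cd44, the hyaluronan receptor, had the largest difference with odor higher. It stood at 7.20, 8.03, 6.48 and 6.85 with odor and at 6.12, 5.27, 5.62 and 6.23 with vehicle (1.33; block adjusted p = 0.184). Gadd45a, a stress-induced growth arrest gene, stood at 7.65, 7.55, 7.27 and 7.48 with odor and at 7.84, 8.73, 8.12 and 8.38 with vehicle (-0.78; 0.2). Slc11a1, a metal transporter of phagocytes, differed by -0.77 (0.192). Mpp4 (-0.91), Omd (-0.87) and Gm20917 (-0.81) lay below the control median in all 8 arrays, so that their differences are between background signals.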

How the data were processed

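Biotin-labelled cRNA from 50 to 100 ng of total RNA of FACS-sorted cells was hybridised to Affymetrix arrays, per the labels' protocols. The deposited table holds log2 signals, made by the authors; the submitters' processing notes name Affymetrix Expression Console, with its version, background step and normalization not given in the sources used here. That they are on a log2 scale was judged from their range. Of 28846 features 19572 carried 1 gene symbol; the brightest feature of a gene was kept, which left 19505 genes, 1091 of them odorant receptors by name. A fold change is 2 to the power of a log2 difference and can understate changes of dim or bright genes. Groups and numbers came from the titles. Replicates are pools of mice.

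Models were fitted in R 4.3.3 with limma 3.58.1 (lmFit, eBayes with a variance trend), two-sided, Benjamini-Hochberg over all genes, threshold 0.05: the 8 arrays unpaired (6 residual degrees of freedom), with the replicate number as a block (3), and, for the difference between fractions, 16 arrays with the pool as a block (6). Deviations from group means correlated at 0.198 to 0.279 between odor and vehicle arrays of equal number, over 0.1 in 4 of 4, and at -0.151 to 0.0274 otherwise, so the numbers were taken to pair the pools. In the arrays titled GFP+ the ranges overlapped: 0.0787 to 0.410 for equal numbers, over 0.1 in 3 of 4, and -0.322 to 0.263 otherwise. There odor pool 4 correlated more with vehicle pool 2 (0.263) than with vehicle pool 4 (0.0787). The labels say the groups were exposed together, not that a number marks a shared exposure. No 2 arrays were duplicates (smallest SD of differences 0.359).

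The comparison, gene lists, motifs and naming rule were chosen with earlier results of these data known. Named were S100a5, Omp, the called genes, the 8 largest non-overlapping differences per direction at an unadjusted p under 0.01, the 5 largest non-overlapping receptors per direction, and up to 4 members per list described with those past the threshold. Olfr937, Olfr971, neighbouring receptors and further list members are outside the rule. Lists are described by counts and medians. The fits were run on simulated data with normally distributed noise, to check that they return the size of known changes. That run does not judge the calls made here. Promoter windows came from RefSeq (GRCm38.p6). Alternatives were other scalings, a filter on dim genes, feature choice, no trend, other blocks, the Y-linked covariate and each array or number left out.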

Additional observations from a re-analysis of the deposited data

Results flagged for a closer look

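In groups of 4 arrays, the 32 genes named for the comparison or linked to the Y chromosome were searched for an array far from the other 3. Of 64 groups 14 held one. The groups are not independent, since the genes share arrays and most were chosen from these data, so no chance rate is set beside this count. The Y-linked genes gave 6, all in number 4: Uty at 3.644 (odor) and 4.173 (vehicle), Kdm5d at 2.833 and 3.501, and Eif2s3y at 2.802 and 2.714, against 6.85 or more in the other arrays.

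Number 3 was high for Kirrel2 under both treatments, at 16.18 with odor (others 15.39 to 15.50) and 15.13 with vehicle (others 14.65 to 14.70), and for Tle3 with odor, at 16.23 (others 15.70 to 15.76). S100a5 was low in vehicle pool 4, at 16.23 (others 16.59 to 16.62). Odor pool 1 was low for Olfr1221 at 7.422 (others 8.40 to 8.52), for Olfr667 at 8.39 (others 8.93 to 9.04) and for Mpp4 at 3.626 (others 4.03 to 4.07), and vehicle pool 3 was high for Mpp4 at 5.029 (others 4.79 to 4.81).

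The odor effect on Olfr221 differed between the fractions by 5.805 (limma interaction, adjusted p = 0.00306), higher with odor in 4 of 4 arrays titled GFP- and lower in 4 of 4 titled GFP+.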

How the results depend on the processing

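The unpaired count of 1 gene became 2 after housekeeping centring, 15 with the replicate block and 0 in the fit of 16 arrays with the pool as a random block (correlation 0.164), and was 1 to 2 with single arrays left out (2 without odor pool 4, which added Olfr1022, and 2 without vehicle pool 2, which added Pcdh10). It was 1 under the other alternatives, Y-linked covariate included. The count of 15 with the replicate block became 1 with no replicate block, 0 without the variance trend, 40 with the Y-linked covariate and 5 to 25 with a number left out. It was 14 after median centring or cyclic loess, 15 without dim genes or with mean features, 18 over all features and 22 after housekeeping centring (21 higher, 1 lower). The count of 1 for the difference between fractions was 1 in every alternative run. The block changed 14 calls of named genes, all gained, and no other call.

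Signs turned for Omp, S100a5 and the medians of 5 gene lists. Omp was at -0.01467 after median centring and at -0.007923 with the block and Y-linked covariate. With single arrays left out it ran from -0.03204 (without odor pool 3) to 0.04591, and with a number left out of the block fit from -0.02274 (without number 3) to 0.04532. S100a5 was at -0.00124 with the block and covariate, and ran from -0.02248 (without vehicle pool 4) to 0.124 with single arrays left out. Without dim genes, which left fewer members, the median of the erythroid list went from -0.11 to 0.02, that of the non-clustered protocadherins from 0.01 to -0.000396, and that of the horizontal basal cell list moved to -0.29. Median centring turned the medians of the mature (0.02 to -0.01) and immature (0.03 to -0.003467) sensory neuron lists, the protocadherins (to -0.02) and the signal regulators (0.00113 to -0.03), and cyclic loess that of the signal regulators (to -0.000808). In each case the cause was not tested. The covariate used 3 Y-linked genes, the number measured. Scaling moved the median of all genes between -0.03 and 0.03. Signals near the negative controls limit Olfr1221, and in part Olfr1022 and Olfr1245, in vehicle arrays and the dim genes named.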
